A study of Mus musculus with 14 samples.

Results

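Sult1a1 and 9 genes for the clearance of aldehydes and foreign chemicals were described in mouse haematopoietic stem cells (HSCs), which live in the bone marrow and renew all blood lineages. The 10 genes were found by their symbols among 48714 gene labels joined over all libraries, each as 1 row with no copy number. Sult1a1 was chosen because its level differed between the calcium groups of these same libraries, so its calcium difference is given as a description with no test. The other 9 genes were chosen by function, with earlier results of these data known. Of the 10 genes, 9 had a mean of 1 RPKM or more (reads divided by the length of the gene model and by the library's total) and were tested among 9921 such genes, while Aldh1b1 was below that level.

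All cells were from the bone marrow of C57BL/6 mice; the labels give no age, sex or treatment. HSCs with high calcium, [Ca2+]high (calcium-high), were compared with HSCs with low calcium, [Ca2+]low (calcium-low), in 7 libraries of each group, numbered 1 to 7 and each made from 100 sorted cells. The series title concerns dormant and active HSCs and cytoplasmic calcium. The labels do not say how calcium was read in the sort, nor whether the libraries came from separate animals, so p-values reflect the spread among these samples, which may be technical. What a replicate number stands for is not stated either. In bulk RNA, fewer cells that express a gene and less RNA per cell cannot be told apart.

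Replicates 1 to 3 and 4 to 7 are called library sets here, because the series lists them apart. Reads in listed genes numbered 3575282 to 7387840 a library in the first set and 8280756 to 10296347 in the second. Depth and library set cannot be told apart. Y-linked genes had 1298 to 1638 reads in each library of numbers 1 and 2 and 0 to 4 in the rest, so this split ran within the first set. The 9 HSC marker genes, such as Kit, Procr and Mecom, were all tested, and their sum ran from 120 to 196 RPKM over the calcium-high libraries and from 119 to 180 RPKM over the calcium-low ones. In replicates 4 to 7 the ranges did not overlap, at 154 to 196 and 124 to 149 RPKM. Calcium-low replicate 3 stood apart by marker sums. Its 10 neutrophil and monocyte markers summed to 836 RPKM, against 51.7 to 211 in the other libraries. Its 10 erythroid markers summed to 349 RPKM, against 114 to 230. Calcium-high replicate 3 stood apart with it for some erythroid genes, singled out after their values were seen. Car1 reached 62.5 RPKM there, 119.7 in its calcium-low counterpart and 0 to 17.1 elsewhere. Klf1 had 5.43 RPKM there, 9.52 in the counterpart and 0.117 to 3.03 elsewhere. Hbb-bt did not separate so, at 7.97 and 9.25 RPKM against 5.47 to 29.6. Car2, the largest term of the sum, ran from 98.9 to 189.5 RPKM over all libraries. Both libraries of number 3 were lowest for Ly6a, the gene of the HSC surface antigen Sca-1, at 4.85 and 5.03 RPKM against 8.85 to 23.6 in the other libraries. Results that rest on the libraries of number 3 are given with and without them.

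Detoxification runs in stages. Oxidising and reducing enzymes first change a reactive compound, and conjugating enzymes then attach a sulfate or glutathione group that makes it easier to excrete. Sulfotransferases such as Sult1a1 move sulfate from the donor PAPS onto phenols and other small molecules. Aldehyde dehydrogenases oxidise aldehydes to acids, Adh5 clears formaldehyde bound to glutathione, and glutathione transferases of the mu class join glutathione to electrophiles. In blood stem cells, Aldh2, Adh5 and the Fanconi anaemia DNA repair pathway are known to protect against aldehydes made by the cell's own metabolism.

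RefSeq promoters of GRCm38.p6, 250 bases before to 50 bases after the start of transcription, were matched for 8 of the 10 genes. Those of Sult1a1 and Aldh1a1 are printed because these genes had the largest calcium differences of the 9 tested, and that of Gstm5 because its level followed the library set. They lie at chr7:126676369-126676668 on the minus strand, chr19:20601718-20602017 on the plus strand and chr3:107895604-107895903 on the plus strand. Aldh1a1 has another listed window, whose start lies in no GENCODE transcript of the gene and which is not printed. The capitals in the Gstm5 promoter mark a match to the core of the antioxidant response element, the motif bound by the regulator Nfe2l2.
Sult1a1: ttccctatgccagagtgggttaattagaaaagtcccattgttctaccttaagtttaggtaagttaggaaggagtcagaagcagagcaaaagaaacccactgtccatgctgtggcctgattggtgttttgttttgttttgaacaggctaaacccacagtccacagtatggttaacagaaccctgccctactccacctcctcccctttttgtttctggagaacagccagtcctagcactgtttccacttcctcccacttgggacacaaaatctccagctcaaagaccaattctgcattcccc
Aldh1a1: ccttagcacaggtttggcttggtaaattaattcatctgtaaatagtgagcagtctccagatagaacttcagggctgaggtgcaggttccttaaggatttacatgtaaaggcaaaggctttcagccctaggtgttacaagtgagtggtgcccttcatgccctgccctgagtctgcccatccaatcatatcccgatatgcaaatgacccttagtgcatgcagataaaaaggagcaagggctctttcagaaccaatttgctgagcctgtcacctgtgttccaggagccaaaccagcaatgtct
Gstm5: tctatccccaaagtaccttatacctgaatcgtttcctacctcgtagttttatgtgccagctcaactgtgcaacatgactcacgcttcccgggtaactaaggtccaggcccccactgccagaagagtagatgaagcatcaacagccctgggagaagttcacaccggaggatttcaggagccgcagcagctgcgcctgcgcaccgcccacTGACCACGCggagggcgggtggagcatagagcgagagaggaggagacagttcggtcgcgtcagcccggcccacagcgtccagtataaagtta

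The Sult1a1 promoter held 0 CpG dinucleotides and had 46.3% G and C. RefSeq lists a longer span for this gene, which runs upstream to chr7:126690443, and no window at that end was read. The Aldh1a1 promoter held 1 CpG and had 47.0% G and C. Of 32851 mouse promoters of the same length, 5.43% had no CpG and 14.1% had 1 or fewer; the median was 7 CpG and 52.7% G and C. Among the other matched genes, one promoter of Adh5 held 26 CpG, that of Aldh3a2 21, that of Gstm5 18, those of Gstm1 14 and 8, that of Aldh9a1 9 and that of Aldh1b1 7. Another listed Adh5 window, whose start lies in no GENCODE transcript of the gene, held 3. The antioxidant response element core, TGACNNNGC on either strand, was found in the Gstm5 promoter at position -42 from the start and in that of Aldh9a1 at position -87, and in 12.4% of all promoters. The xenobiotic response element core, TGCGTG on either strand, the motif bound by the aryl hydrocarbon receptor, was found in that of Adh5 at position 16 and in 8.47% of all promoters. Neither motif was in the printed windows of Sult1a1 and Aldh1a1. These are matches of letters in a short window and not measured binding sites.

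Sult1a1, the sulfotransferase of phenols, lies at chr7:126672865-126676432 on the minus strand (GRCm38, gene ENSMUSG00000030711.16, GENCODE M21). In calcium-high replicates 1 to 7 it was at 8.21, 8.92, 1.85, 6.34, 4.24, 9.09 and 8.47 RPKM. In calcium-low replicates 1 to 7 it was at 4.39, 3.62, 1.45, 1.77, 1.42, 1.66 and 1.59 RPKM. The calcium-high level was above that of the same number in 7 of 7 pairs, and the groups overlapped through calcium-high replicates 3 and 5, which lay below calcium-low replicate 1. The means were 6.73 ± 2.76 and 2.27 ± 1.21 RPKM (SD, n = 7 each), a ratio of 2.96. Within pairs the ratio ran from 1.28 in pair 3 to 5.47 in pair 6, with a median of 2.99. These levels rested on 147 to 1414 reads per library.

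**Figure D1:**
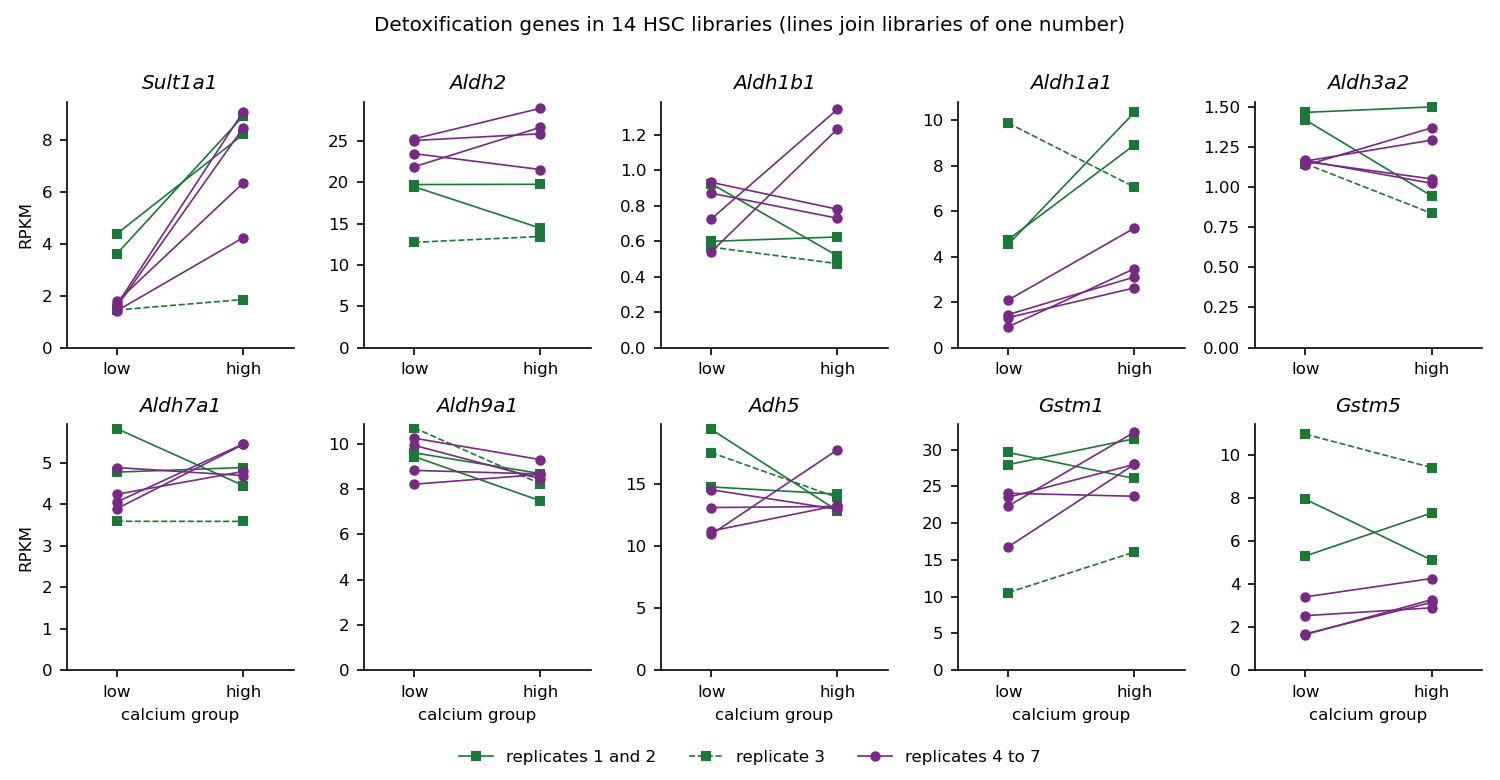
RPKM of the 10 genes in 14 libraries, calcium-low on the left and calcium-high on the right of each panel, with lines that join libraries of the same number. Squares are replicates 1 to 3 (dashed line, replicate 3), circles are replicates 4 to 7, and each panel has its own axis from 0. The line of Sult1a1 goes up in 7 of 7 pairs and that of Aldh1a1 in 6 of 7, with pair 3 as the exception.

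On the log2(RPKM + 1) scale, which understates the change of low genes, Sult1a1 was 1.20 higher in calcium-high HSCs (SE 0.271, and 0.176 with the replicate number as a block). That difference was what chose the gene, so neither SE is read as a test. Leaving out 1 library or 1 pair at a time, it lay between 1.08 and 1.42. The highest value was without calcium-high replicate 3.

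The calcium difference of Sult1a1 was 0.70 on the log2 scale (SE 0.490) in replicates 1 to 3 alone and 1.58 (SE 0.176) in replicates 4 to 7 alone. In the second set the calcium-high libraries were at 4.24 to 9.09 RPKM and the calcium-low libraries at 1.42 to 1.77 RPKM, with no overlap. Of all tested genes, 16.9% likewise had calcium groups that did not overlap in replicates 4 to 7. The difference between the 2 values was 0.88 (SE 0.522) by the authors' scaling, where the median over all genes was 0.31. After median-of-ratios scaling it was 0.58 (SE 0.513), where the median was -0.0038.

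**Figure D2:**
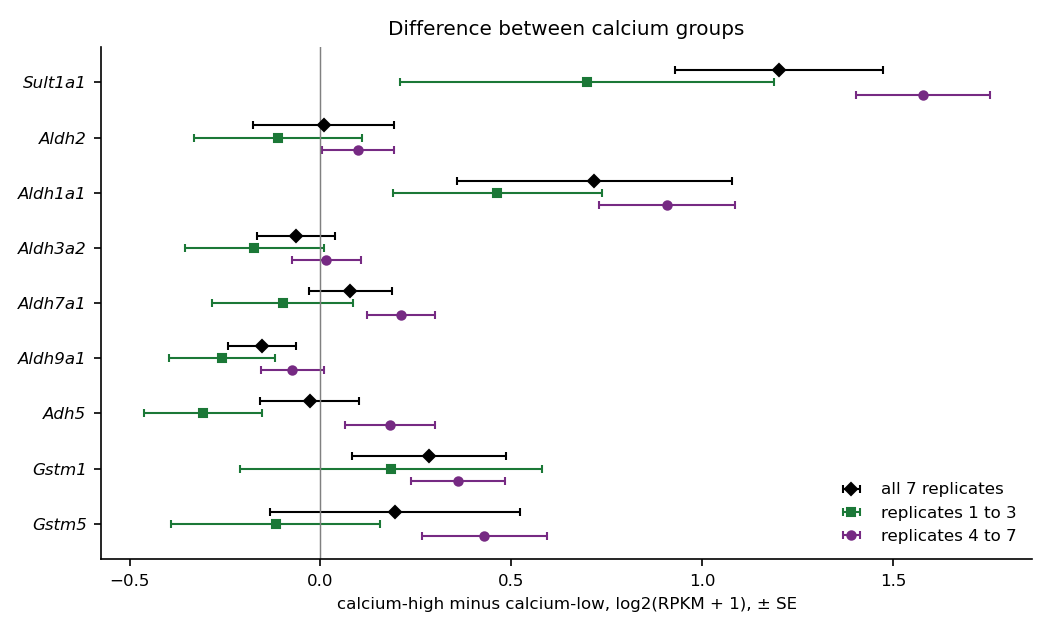
Difference between calcium-high and calcium-low HSCs on the log2(RPKM + 1) scale for the 9 tested genes, with bars of 1 SE. Diamonds are all 7 replicates, squares replicates 1 to 3 and circles replicates 4 to 7. Sult1a1 lies at 1.20 over all replicates and Aldh1a1 at 0.72, and the other 7 genes lie between -0.15 and 0.29.

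Other transcripts overlap Sult1a1. The deposited step of 1 read implied a Sult1a1 gene model of 4413 bases, against 1507 bases of exons in GENCODE, a ratio of 2.93, so reads of neighbouring sequence may be counted in it. Per GENCODE exon length its mean would be 13.2 in place of 4.50 RPKM. Sgf29, a chromatin reader gene that overlaps its end by 61 bases on the opposite strand, was at 7.05 ± 1.22 and 6.47 ± 1.21 RPKM in calcium-high and calcium-low HSCs (SD, n = 7 each; limma adjusted p = 0.991, 0.749 with the block). Slx1b, a nuclease subunit gene that overlaps the longer RefSeq span of Sult1a1 by 1517 bases, was at 1.97 ± 0.688 and 1.67 ± 0.671 RPKM (limma adjusted p = 0.991, 0.713 with the block). Whether the counting used strand is not given in the sources used here.

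Marker lists moved with the calcium groups in the same libraries. In replicates 4 to 7, the 9 HSC markers summed higher in calcium-high HSCs, as given above. Kit, the largest term, overlapped there, at 59.3 to 71.8 and 60.9 to 71.1 RPKM, as did Hlf. The other HSC markers did not overlap. The 5 markers of multipotent and lymphoid progenitors (Cd34, Flt3, Cd48, Dntt and Il7r, 4 of them tested) summed to 15.0 to 36.4 RPKM over the calcium-high libraries and to 25.7 to 71.3 RPKM over the calcium-low ones. In replicates 4 to 7 the ranges were 24.9 to 36.4 and 62.0 to 71.3 RPKM. Most of that was Cd34, at 22.6 to 31.65 and 49.45 to 58.4 RPKM. Flt3 did not overlap there either, whereas Cd48, Dntt and Il7r did. The 6 T and NK cell markers, of which 1 was tested, summed to 4.55 to 18.7 and 11.7 to 33.0 RPKM. Most of that sum was Nkg7, at 3.38 to 18.1 and 11.4 to 33.0 RPKM. Klrb1c went the other way, at 0.461 to 1.70 and 0 to 0.490 RPKM. Cd3e, Cd3g and Ncr1 were at 0 in all libraries, so this sum speaks for Nkg7 and not for the list. The part of these lists in the calcium differences was not tested.

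Of the mitochondrial aldehyde dehydrogenases, Aldh2, which clears acetaldehyde, was the more abundant (chr5:121566027-121593824, minus strand). In calcium-high replicates 1 to 7 it was at 19.8, 14.5, 13.4, 25.9, 29.0, 26.7 and 21.6 RPKM, and in calcium-low at 19.7, 19.5, 12.7, 25.1, 25.3, 21.9 and 23.5 RPKM. The calcium groups overlapped almost wholly: the difference was 0.01 on the log2 scale (SE 0.185; limma adjusted p = 0.999, 0.981 with the block). Its levels instead separated by library set, at 12.7 to 19.8 RPKM in replicates 1 to 3 and 21.6 to 29.0 RPKM in replicates 4 to 7. Aldh1b1, a related mitochondrial enzyme at chr4:45799022-45804604 on the plus strand, was at 0.814 ± 0.343 and 0.736 ± 0.172 RPKM in calcium-high and calcium-low HSCs (SD, n = 7 each) and was higher in 3 of 7 pairs. It rested on 17 to 109 reads per library and was too low to be tested.

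Aldh1a1, the cytosolic enzyme that oxidises retinaldehyde to retinoic acid, had the largest calcium difference after Sult1a1 (chr19:20492715-20643465, plus strand). In calcium-high replicates 1 to 7 it was at 10.4, 8.93, 7.07, 2.63, 3.11, 3.48 and 5.26 RPKM. In calcium-low replicates 1 to 7 it was at 4.55, 4.76, 9.88, 1.32, 1.45, 0.916 and 2.09 RPKM. It was higher in calcium-high HSCs in 6 of 7 pairs, with ratios up to 3.80, and lower in pair 3, where the ratio was 0.715. Calcium-low replicate 3, the library with 836 RPKM of neutrophil and monocyte markers, had by far the highest calcium-low level. The part of those markers in the value was not tested.

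The Aldh1a1 difference was 0.72 on the log2 scale (SE 0.361) and did not pass the test (limma adjusted p = 0.777). With the replicate block the SE fell to 0.163 and the adjusted p to 0.0603, still above the threshold. Without pair 3, the pair in which Aldh1a1 was lower, the difference was 0.91. Its SE was then 0.327 without the block (limma adjusted p = 0.283) and 0.101 with it (limma adjusted p = 0.0007). That blocked fit called 302 of 9921 tested genes. Leaving out any other single pair with the block, the limma adjusted p was 0.102 to 0.211. In replicates 4 to 7 alone the calcium-high levels, 2.63 to 5.26 RPKM, did not overlap the calcium-low levels, 0.916 to 2.09 RPKM, and the difference of 0.91 passed the test (SE 0.178, limma adjusted p = 0.0115). In replicates 1 to 3 alone it was 0.46 (SE 0.273, limma adjusted p = 0.442). The difference between the sets was 0.45 (SE 0.337, limma adjusted p = 0.353), and 0.13 with median-of-ratios scaling. Aldh1a7, a close copy of Aldh1a1, could share its reads, so the level of Aldh1a1 is uncertain to that extent.

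The other aldehyde dehydrogenases differed less between the calcium groups. Aldh9a1, which oxidises an aldehyde on the way to carnitine (chr1:167349991-167368532, plus strand), was at 8.70, 7.49, 8.25, 8.46, 9.31, 8.68 and 8.66 RPKM in calcium-high replicates 1 to 7. The calcium-low replicates had 9.61, 9.45, 10.7, 9.95, 10.3, 8.83 and 8.22 RPKM. It was higher in calcium-high HSCs in 1 of 7 pairs, and its difference of -0.15 (SE 0.0895) did not pass the test (limma adjusted p = 0.854, 0.456 with the block). With coefficients of variation of 6.51% and 8.86% within the groups, it varied least of the 10 genes. Aldh7a1, an enzyme of lysine breakdown (chr18:56509687-56572951, minus strand), was at 4.76 ± 0.638 and 4.46 ± 0.754 RPKM (SD, n = 7 each; limma adjusted p = 0.992). It overlaps Phax, an RNA export gene on the opposite strand, by 10509 bases, and Phax was at 4.14 ± 1.20 and 4.89 ± 1.04 RPKM. Aldh3a2, the fatty aldehyde dehydrogenase (chr11:61223417-61267464, minus strand), was at 1.15 ± 0.244 and 1.24 ± 0.142 RPKM (SD, n = 7 each; limma adjusted p = 0.992).

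Adh5, the formaldehyde-clearing enzyme (chr3:138443093-138455499, plus strand), was at 12.8, 14.2, 13.9, 12.9, 17.7, 13.3 and 13.2 RPKM in calcium-high replicates 1 to 7. In calcium-low replicates 1 to 7 it was at 19.4, 14.7, 17.5, 14.5, 10.9, 11.2 and 13.1 RPKM. The groups overlapped, the calcium-low level was the higher in 4 of 7 pairs, and the difference was -0.03 (SE 0.130; limma adjusted p = 0.998, 0.953 with the block). In replicates 1 to 3 the calcium-low libraries were above the calcium-high ones in all 3 pairs, at a difference of -0.31 (limma adjusted p = 0.421). In replicates 4 to 7 the difference was 0.18 (limma adjusted p = 0.347). The medians over all tested genes had the same signs, at -0.197 in replicates 1 to 3 and 0.107 in replicates 4 to 7. The difference between the 2 values of Adh5 was 0.49 (SE 0.189, limma adjusted p = 0.134), and 0.12 with median-of-ratios scaling.

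The mu-class glutathione transferases behaved differently from each other. Gstm1 (chr3:108012255-108017973, minus strand) had the highest mean of the 10 genes. Calcium-high replicates 1 to 7 had 31.5, 26.1, 16.1, 23.7, 28.0, 28.0 and 32.4 RPKM. Calcium-low replicates 1 to 7 had 28.0, 29.6, 10.6, 24.1, 23.5, 16.8 and 22.4 RPKM. It was higher in calcium-high HSCs in 5 of 7 pairs, at a difference of 0.29 (SE 0.202) that did not pass the test (limma adjusted p = 0.925, 0.292 with the block). Both libraries of number 3 were the lowest of their group, at 16.1 and 10.6 RPKM.

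Gstm5 (chr3:107895821-107898686, plus strand) was at 5.12, 7.31, 9.42, 3.27, 4.26, 2.90 and 3.15 RPKM in calcium-high replicates 1 to 7. In calcium-low replicates 1 to 7 it was at 7.95, 5.30, 10.97, 1.65, 3.40, 2.53 and 1.68 RPKM. Both libraries of number 3 were the highest of their group. The calcium difference was 0.19 (SE 0.328; limma adjusted p = 0.994, 0.589 with the block), whereas all 6 libraries of replicates 1 to 3 lay above all 8 of replicates 4 to 7. Genes of the Gstm family are related, so reads may be split between them. How alike their sequences are was not computed.

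Sult1a1 aside, 8 of the genes were tested between the calcium groups. Without the block limma called 0 of the 8, and 0% of all tested genes. At an unadjusted p under 0.05 there were 0 of the 8, and 6.74% of all tested genes. With the block limma called 0 of the 8, and 0.917% of all tested genes. At an unadjusted p under 0.05 there were then 2 of the 8, and 13.9% of all tested genes. In replicates 4 to 7 alone limma called 1 of the 8, Aldh1a1, and 8.14% of all tested genes. By limma-voom on the reads recovered from the RPKM steps, 1 of the 8, Aldh1a1, and 7.06% of all tested genes were called. The median difference of all 9 tested genes was 0.08 over all replicates, beside -0.03 for all tested genes. That median includes Sult1a1, which was chosen for this difference. Interaction of calcium group and library set was called by limma for 0 of the 8 genes and 0% of all genes without the block, and for 0 of the 8 and 1.66% of all genes with it. At an unadjusted p under 0.05 there were 1 of the 8, Adh5, and 28.6% of all genes without the block, and 2 of the 8 and 37.5% of all genes with it.

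With the calcium group in the same limma model, 3 of the 9 tested genes were called between replicates 4 to 7 and replicates 1 to 3, as were 48.8% of all tested genes, so the count of 3 is no sign of a difference particular to these genes. Aldh1a1 was lower in replicates 4 to 7 by a log2 difference of -1.32 (SE 0.173, limma adjusted p = 3.3e-05). Its mean was 7.59 ± 2.54 RPKM in the 6 libraries of the first set and 2.53 ± 1.42 RPKM in the 8 of the second. Gstm5 was lower by a difference of -1.16 (SE 0.172, limma adjusted p = 8.7e-05), with means of 7.68 ± 2.29 and 2.86 ± 0.883 RPKM. Aldh2 was higher by 0.57 (SE 0.116, limma adjusted p = 0.00096), with means of 16.6 ± 3.39 and 24.8 ± 2.48 RPKM.

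For Aldh2 and Gstm5 the library sets did not overlap, as for 17.1% of all tested genes. Those of Aldh1a1 overlapped through calcium-high replicate 7, at 5.26 RPKM, and calcium-low replicates 1 and 2, at 4.55 and 4.76 RPKM. Without either library of number 3, where the first set is only the libraries with Y-linked reads, the set differences remained at -1.23 for Aldh1a1, -0.96 for Gstm5 and 0.42 for Aldh2, and each passed the test (limma adjusted p = 1.7e-05, 0.00031 and 0.0045). Sult1a1 had a set difference of -0.15 (SE 0.274, limma adjusted p = 0.661) over all libraries. Without those of number 3 it was -0.62 (SE 0.161, limma adjusted p = 0.0062). That setting, chosen after seeing the data, called 4 of the 9 tested genes and 4661 of all 9921. The count of 4 is thus no sign of a difference particular to these genes. Calcium-low replicates 1 and 2 then stood at 4.39 and 3.62 RPKM against 1.42 to 1.77 RPKM in calcium-low replicates 4 to 7. With number 3 included, the HSC markers summed to 119 to 188 RPKM in the first set and 124 to 196 RPKM in the second. The erythroid markers summed to 114 to 349 and 134 to 230 RPKM. Calcium-low replicate 3 had the 119 and the 349 RPKM. In calcium-low replicates 1 and 2, all 9 HSC markers but Hlf and Hoxb5 lay above their levels in calcium-low replicates 4 to 7. Procr was there at 7.26 and 5.94 RPKM against 3.20 to 4.47 RPKM, and Hlf at 44.1 and 51.5 RPKM against 34.05 to 52.8 RPKM. Other lists separated by set within a calcium group. In calcium-low libraries the 5 progenitor markers summed to 25.7 to 48.9 RPKM in the first set and 62.0 to 71.3 RPKM in the second. There the 6 T and NK cell markers summed to 11.7 to 19.4 and 20.4 to 33.0 RPKM, most of it Nkg7, at 11.4 to 19.25 and 20.3 to 33.0 RPKM. In calcium-high libraries the 10 neutrophil and monocyte markers summed to 51.7 to 63.6 and 80.7 to 211 RPKM. The largest term was Lyz2, at 41.7 to 53.8 and 60.6 to 147 RPKM. The part of these lists in the set differences was not tested.

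**Figure D3:**
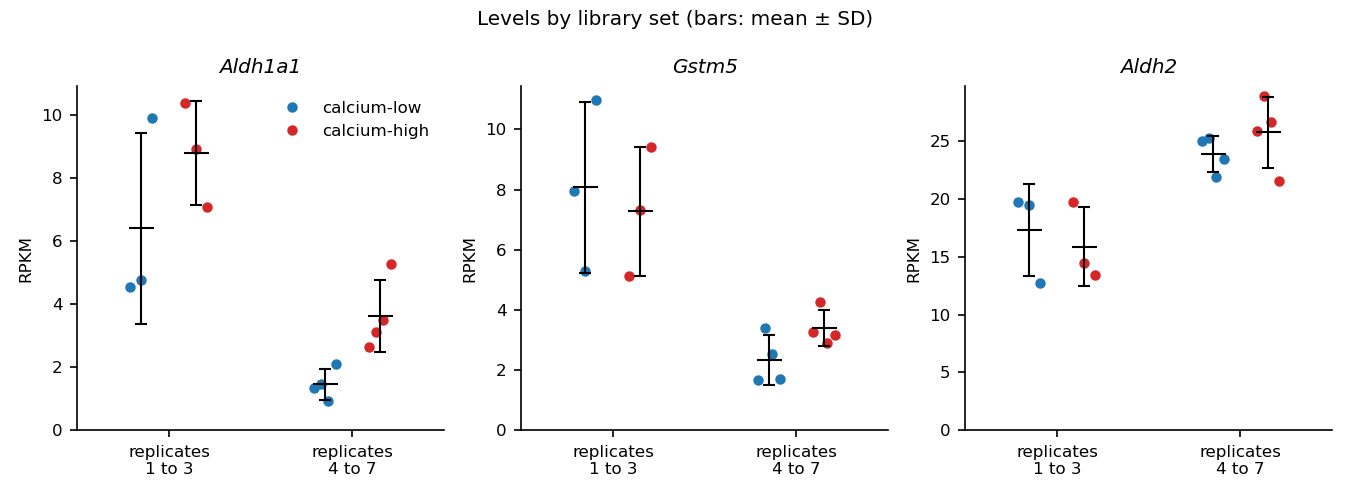
RPKM of Aldh1a1, Gstm5 and Aldh2 in replicates 1 to 3 and replicates 4 to 7, calcium-low libraries in blue and calcium-high in red, with bars for the mean ± SD of 3 or 4 libraries. Aldh1a1 and Gstm5 fall from means of 7.59 and 7.68 RPKM in the first set to 2.53 and 2.86 RPKM in the second, and Aldh2 rises from 16.6 to 24.8 RPKM.

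Ordered by mean RPKM, which is a level per length of gene model, Gstm1 stood at 24.3, Aldh2 at 21.3, Adh5 at 14.2, Aldh9a1 at 9.04, Gstm5 at 4.92, Aldh1a1 at 4.70, Aldh7a1 at 4.61, Sult1a1 at 4.50, Aldh3a2 at 1.19 and Aldh1b1 at 0.775. The 9 pairs of neighbours were compared by an exact two-sided sign-flip permutation test on the mean log2 difference of each of the 7 replicate numbers, whose smallest p is 0.0156. Adh5 lay above Aldh9a1, Sult1a1 above Aldh3a2 and Aldh3a2 above Aldh1b1 in 7 of 7 numbers (adjusted p = 0.0469 each, exact permutation test). The other 6 pairs of neighbours did not pass the threshold, so the order within each of those pairs was not resolved. Genes that are not neighbours in the order were not compared. The order depends on the gene models: Adh5 would be at 4.44 and Aldh1a1 at 1.93 RPKM per GENCODE exon length, in place of 14.2 and 4.70. Aldh9a1 would be at 8.55 in place of 9.04, so Adh5 would then lie below it, against the order above. The permutation test takes the gene models as given, so its p does not cover this.

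Genes most like Sult1a1 over the 14 libraries, by Pearson's r of the deviations of log2(RPKM + 1) from the group mean among 9920 genes, included Gimap1, Plekhb2, Gbp9 and Sema7a. Their r was 0.958, 0.940, 0.936 and 0.927. With deviations taken from the mean of each group and library set, and without both libraries of number 3, which are low for Sult1a1, r was 0.827, 0.886, 0.753 and 0.762 over 12 libraries. Sema7a, which encodes a semaphorin, averaged 4.33 ± 2.04 RPKM over calcium-high and 2.49 ± 0.942 RPKM over calcium-low libraries (SD, n = 7 each).

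Among the detoxification genes themselves, Aldh3a2 was most like Sult1a1, with an r of 0.768 over 14 libraries and rank 222 of 9920 genes, followed by Aldh7a1 at 0.729 and Gstm1 at 0.680. Within groups and sets and without the libraries of number 3 these values were 0.463, 0.206 and 0.105. Aldh1a1 and Gstm5 had an r of 0.820, and Aldh2 had -0.816 with Aldh1a1 and -0.814 with Gstm5. Within groups and library sets those values were 0.042, -0.443 and -0.523, and without the libraries of number 3 they were -0.350, -0.201 and -0.0758. Libraries of a set also share depth. No p is given for these descriptions.

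Another 167 genes of 10 detoxification lists, without the genes above, were read in the same fit. Of these 166 were listed, 26 were at 0 in all libraries and 82 were tested. None of the 82 was called by limma without the block or with it. The shares of all tested genes called were 0% and 0.917%. Without the block 4 of the 82 had an unadjusted p under 0.05, beside 6.74% of all tested genes. With the block 12 of the 82 had, beside 13.9% of all tested genes. Of the 82 differences, 42 were above 0 and 40 below, with a median of 0.0043 beside -0.03 for all tested genes. By limma-voom 5 of the 82 were called, which is 6.1%, beside 7.06% of all tested genes. They are named after their values were seen: Ahr (a receptor for foreign aromatic compounds), Cyp4f16 (a cytochrome P450) and Gstt1 (a glutathione transferase) were higher in calcium-high HSCs. Ggt5, which cleaves glutathione conjugates, and Mafk, a partner of Nfe2l2, were lower. In replicates 4 to 7 alone limma called 6, which is 7.32%, beside 8.14% of all tested genes: Akr1b3, Cyp4f16, Gstk1 and Gstt1 were higher and Ggt5 and Mafk lower. Between the library sets 34 were called, 20 higher and 14 lower in replicates 4 to 7, which is 41.5% of the 82, beside 48.8% of all tested genes.

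In the sulfate and glutathione branches around Sult1a1 and the Gstm genes, limma over all replicates gave no call with or without the block. The limma-voom calls there were Gstt1 and Ggt5. Of 25 sulfotransferases and genes of sulfate donor supply, 14 were at 0 in all libraries and 4 were tested. Impad1, a phosphatase of the sulfation by-product, was at 8.12 ± 1.43 and 8.84 ± 1.64 RPKM in calcium-high and calcium-low HSCs, and Slc35b2, the Golgi PAPS transporter, at 7.40 ± 0.816 and 7.20 ± 0.915 RPKM (SD, n = 7 each). Of 14 tested glutathione transferases, 10 differences were above 0 and 4 below. Gsto1 was at 16.8 ± 2.11 and 19.5 ± 3.85 RPKM, and the copy of Gstp1 listed with number 2 at 14.02 ± 4.58 and 15.0 ± 2.15 RPKM. All 5 tested genes of glutathione supply had differences below 0, with a median of -0.16. Among them Gclm, the modifier subunit of the enzyme that limits glutathione synthesis, was at 11.9 ± 1.86 and 14.6 ± 2.95 RPKM and was higher in calcium-high HSCs in 0 of 7 pairs (limma adjusted p = 0.777, 0.198 with the block). Gsr, which regenerates glutathione, was at 7.45 ± 2.34 and 7.55 ± 1.33 RPKM.

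Among the oxidising and reducing enzymes limma over all replicates also gave no call with or without the block, and limma-voom called Cyp4f16. Of 5 tested aldehyde dehydrogenases beyond those above, 4 differences were above 0, and Aldh16a1 and Aldh18a1 were at 10.3 ± 2.46 against 11.5 ± 2.16 RPKM and 9.07 ± 2.27 against 8.88 ± 1.86 RPKM in calcium-high and calcium-low HSCs. Esd, which acts after Adh5 in formaldehyde clearance, was the 1 tested gene of its list, at 5.02 ± 0.869 and 5.89 ± 2.38 RPKM. Of 13 tested carbonyl and quinone reductases, 4 differences were above 0 and 9 below. The aldo-keto reductases Akr1b3 and Akr1a1 were at 30.7 ± 6.72 against 26.9 ± 2.82 RPKM and 25.2 ± 2.24 against 28.6 ± 4.79 RPKM. Of 9 tested phase I genes, the cytochrome P450 and epoxide hydrolase group, 8 differences were above 0, with a median of 0.08. Por, the reductase that feeds electrons to cytochromes P450, was at 18.4 ± 3.48 and 16.2 ± 2.85 RPKM, and Cyb5a, cytochrome b5, at 14.8 ± 1.89 and 14.8 ± 4.18 RPKM. Of 4 other conjugating enzymes 3 differences were above 0, and As3mt, a methyltransferase, was at 4.18 ± 0.650 against 4.26 ± 1.19 RPKM.

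Of 10 tested regulators of detoxification genes, 6 differences were above 0 and 4 below. Nfe2l2, the main activator of genes with antioxidant response elements, was at 9.22 ± 0.603 and 9.12 ± 1.96 RPKM in calcium-high and calcium-low HSCs, and Bach1, a repressor at the same elements, at 6.79 ± 1.05 and 7.90 ± 1.18 RPKM (SD, n = 7 each). Ahr, the aryl hydrocarbon receptor, singled out after its values were seen, was at 2.20 ± 0.604 and 1.38 ± 0.388 RPKM and higher in 7 of 7 pairs. Its difference of 0.42 did not pass the test (SE 0.137; limma adjusted p = 0.435, 0.0506 with the block). Of 17 tested genes of the Fanconi anaemia pathway, which repairs DNA crosslinks such as aldehydes cause, 5 differences were above 0 and 12 below, with a median of -0.08. Faap20 and Faap100, both partners of the pathway's core complex, were at 11.6 ± 3.86 against 10.4 ± 2.27 RPKM and 4.80 ± 1.61 against 5.08 ± 1.10 RPKM.

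**Figure D4:**
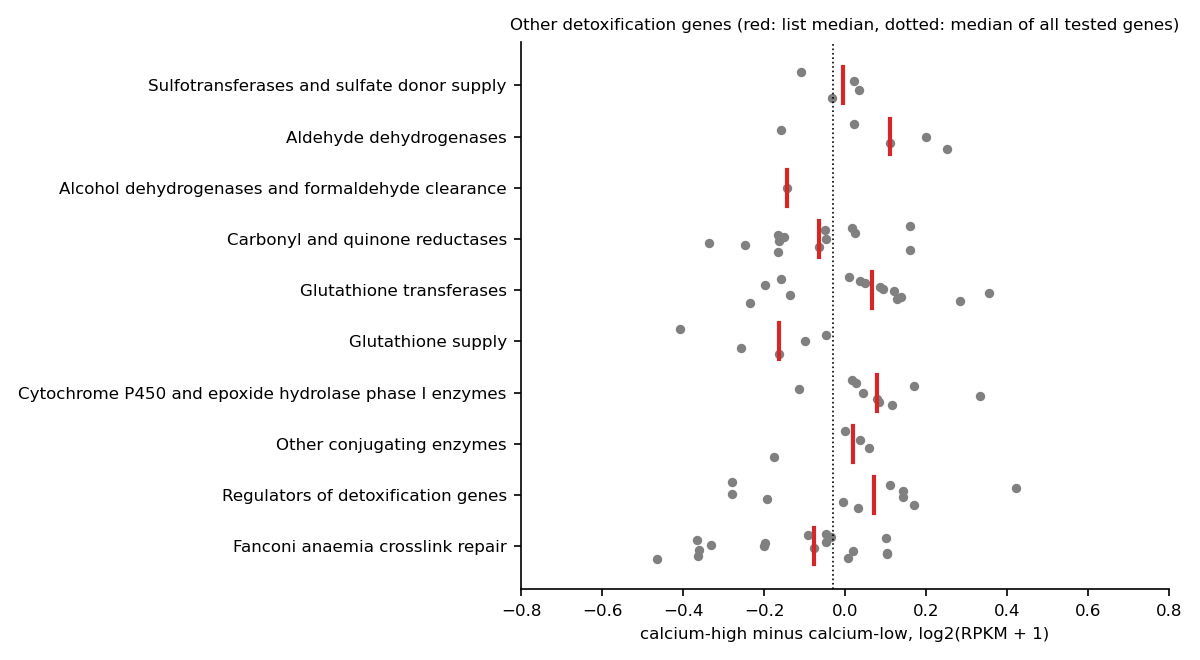
Difference between calcium-high and calcium-low HSCs on the log2(RPKM + 1) scale for the 82 tested genes of 10 detoxification lists, 1 grey point a gene, with the list median in red and the median of all tested genes, -0.03, as a dotted line. The list medians lie between -0.16 for glutathione supply and 0.11 for the aldehyde dehydrogenases, and no point was called by limma over all replicates.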

How the data were processed

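RNA of 100 sorted HSCs per library was copied with not-so-random primers and made into Nextera XT libraries for a NextSeq sequencer, per the labels' protocols. The authors deposited RPKM, in 1 file per library; the header names no unit, and RPKM was read from the values. The submitters' processing notes name GRCm38, mm10 and edgeR with no role. The aligner, counter, annotation and use of strand are not given in the sources used here.

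Labels were joined over the 14 files (48714; in replicates 4 to 7, 23 labels that had become serial numbers were left out). Values in each gene were whole multiples of a step, so whole reads were recovered for all 18207 genes above 0, to within 0.02 reads, on library totals of 14.3 to 37.2 M reads; the listed genes held 25.0% to 32.5% of these totals. The 9921 genes that averaged at least 1 RPKM were fitted on log2(RPKM + 1) by limma 3.58.1 (R 4.3.3, trend option); p-values were adjusted over all 9921 by the Benjamini-Hochberg method with a threshold of 0.05. The main model had no block. In each of the 7 pairs of same-numbered libraries, deviations from the group mean correlated by 0.384 to 0.715. These lay above 0.1, the ground on which blocked values are given where they change a call. Only the group mean was taken out, so a shared library set can also raise these correlations. They do not show that the numbers pair the libraries. In 5 of 14 libraries the best partner had the same number. Tables were made with pandas 2.3.3, numpy 2.4.6 and scipy 1.17.1 under Python 3.11.15, figures with matplotlib 3.10.9.

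The genes and lists were chosen with earlier results of these data known. All 10 detoxification genes are named; of each other list, those called with or without the block are named, otherwise the 2 with the highest mean; and the 5 genes most like Sult1a1. Some genes these rules select are not reported here. Alternatives were the block, other pseudocounts, filters and scaling, limma-voom on the reads, each library set, the set as a term, and leaving out each library or pair.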

Additional observations from a re-analysis of the deposited data

Results flagged for a closer look

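In 20 groups of 7 libraries, 1 for each gene and calcium group, 2 libraries lay farther from the rest of their group than Dixon's 95% limit; chance alone gives about 1 in 20 groups. Aldh1a1 was at 9.88 RPKM in calcium-low replicate 3, where the rest of that group had 0.916 to 4.76 RPKM. Adh5 was at 17.7 RPKM in calcium-high replicate 5, against 12.8 to 14.2 RPKM in the other calcium-high libraries.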

How the results depend on the processing

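Between the calcium groups, limma called 0 of 9921 genes, 0 of the 9 tested members and 0 of 82 pathway genes. Genes called became 91 with the replicate block, 1 with no filter, 4 with a mean of 3 RPKM or more, 4 with median-of-ratios scaling, 700 with limma-voom, 51 with the library set as a term and 808 in replicates 4 to 7 alone. Among settings chosen after seeing the data they became 328 with median-of-ratios scaling and the block together, 656 with the block in replicates 4 to 7, and 119 without either library of number 3. Leaving out 1 library gave 0 to 101, the highest without calcium-high replicate 3. Leaving out pairs 1 to 7 with the block gave 8, 3, 302, 0, 12, 2 and 0. Members called became 1 with the block, 2 by limma-voom, 2 in replicates 4 to 7 alone, 2 with that scaling and the block, 2 with the block in replicates 4 to 7, 1 without either library of number 3, and 0 to 2 leaving out single libraries or pairs; these counts include Sult1a1, which was chosen for this difference. Pathway genes called became 5 by limma-voom, 6 in replicates 4 to 7, 9 with the block there, 3 with that scaling and the block, and 0 to 2 leaving out. For the interaction of group and set, 165 genes were called with the block and 0 to 1895 leaving out single libraries, the highest without calcium-low replicate 2. In that setting 1 member, Adh5, was called, and 0 in the other settings. The cause of these changes was not tested.

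Of 494 member differences under the alternatives, 438 kept direction and side of the threshold, 18 came past it, 37 reversed and 1, of the untested Aldh1b1 in replicates 1 to 3 (-0.14), moved. The reversed differences were all of genes that passed no test there. For Adh5 the calcium difference became 0.027 by limma-voom, 0.18 in replicates 4 to 7 with or without the block and 0.020 without number 3, with or without the block. It was 0.061 with the block without pair 1, and -0.086 to 0.043 leaving out 1 library. For Aldh2 it became -0.014 by limma-voom, -0.11 in replicates 1 to 3, -0.0023 without number 3, -0.022 and -0.036 with the block without pairs 5 and 6, and -0.10 to 0.11 leaving out. Aldh3a2 became 0.016 in replicates 4 to 7 with or without the block. Aldh7a1 became -0.10 and Gstm5 -0.12 in replicates 1 to 3. The set difference became -0.076 for Aldh7a1 and -0.22 for Gstm1 without number 3. Leaving out single libraries it ran from -0.074 to 0.024 for Aldh3a2, -0.014 to 0.13 for Aldh7a1, -0.028 to 0.040 for Aldh9a1, -0.051 to 0.26 for Gstm1 and -0.46 to 0.00024 for Sult1a1. Aldh2, Aldh1a1 and Gstm5 were called between the sets in all settings run. Depth limits Aldh1b1 most, at 17 to 109 reads per library.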
